A study of Mus musculus with 3 samples.

Results

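Iron handling and ferroptosis defence were followed through 10 genes in single-cell RNA sequencing of the postnatal mouse retina: Tfrc, Fth1, Ftl1, Slc40a1, Hmox1, Slc7a11, Gpx4, Prdx1, Aifm2 and Acsl4. They were chosen by their symbols, with no rule on measured values but with earlier results of these data known. They were 10 of the 33696 genes in the files. The data were 3 libraries of retinal cells from mice on a C57BL/6 background at postnatal day 6, enriched on beads for CD31 and CD11b so that endothelial cells (ECs) and microglia were over-represented. The genotypes were wild type (WT), Tspan12 KO, a knockout of the Norrin co-receptor subunit Tspan12, and Ctnnb1 cKO, in which Ctnnb1 flox/flox; Pdgfb-iCreER mice received tamoxifen after birth to remove β-catenin from ECs. The Cre driver acts in ECs, so microglia, macrophages and neurons of the Ctnnb1 cKO retina were not its target, whereas Tspan12 was knocked out with no limit to a cell type in the methods. Each genotype was 1 library made from pooled mice, with WT animals taken from other litters. Whether the WT mice carried Cre or received tamoxifen is not given in the sources used here.

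Iron enters most cells bound to transferrin through the transferrin receptor (Tfrc), is stored inside shells of ferritin heavy and light chains (Fth1, Ftl1), and leaves through ferroportin (Slc40a1), while heme oxygenase 1 (Hmox1) frees iron from haem. Ferroptosis is a form of cell death in which iron drives the peroxidation of membrane lipids. Acsl4 loads polyunsaturated fatty acids into those lipids, Slc7a11 imports the cystine from which glutathione is made, Gpx4 uses glutathione to reduce lipid peroxides, Prdx1 reduces hydrogen peroxide, and Aifm2 (FSP1) regenerates quinone antioxidants independently of glutathione. Part of this circuit is set after transcription: iron regulatory proteins bind a stem-loop in the mRNA, the iron-responsive element (IRE), and block translation when it lies in the 5′ UTR or stabilise the transcript when it lies in the 3′ UTR.

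To show which of the 10 genes carry this element, the IRE motif (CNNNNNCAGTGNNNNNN, 17 bases on the sense strand, with 5 pairs closing the stem around the loop and G-T pairs allowed) was searched in the GENCODE vM21 transcripts on GRCm38. Of the 10 genes, 4 held it and 6 did not. The capitals mark the 6-base loop.
Fth1 5′ UTR (transcript Fth1-203, exon 2 of 5, plus strand, chr19:9982738-9982754): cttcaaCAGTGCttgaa
Ftl1 5′ UTR (Ftl1-201, exon 1 of 4, minus strand, chr7:45459785-45459801): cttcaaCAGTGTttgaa
Slc40a1 5′ UTR (Slc40a1-201, exon 1 of 8, minus strand, chr1:45925471-45925487): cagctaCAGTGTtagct
Tfrc 3′ UTR (Tfrc-201, exon 19 of 19, plus strand, chr16:32631225-32631241): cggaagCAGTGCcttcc
Tfrc 3′ UTR (chr16:32631604-32631620): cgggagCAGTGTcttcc
Tfrc 3′ UTR (chr16:32631669-32631685): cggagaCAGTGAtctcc
Tfrc 3′ UTR (chr16:32631716-32631732): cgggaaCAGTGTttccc
Tfrc thus carried 4 matches, all after the coding sequence in its last exon, and the ferritin chains and Slc40a1 carried 1 each ahead of theirs. Among 21842 protein-coding genes, 0.142% had a match in a 5′ UTR, 0.591% in a 3′ UTR and 0.733% in either. A match is a match of letters and folding, not a measurement of binding.

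The deposited matrices held 92684519 UMIs (unique molecular identifiers, each standing for 1 captured transcript) for WT, 137114957 for Tspan12 KO and 37008362 for Ctnnb1 cKO, over 9951, 14426 and 9151 barcodes. After filtering and doublet removal, clusters were named from marker genes as EC-like, microglia-like, macrophage- or monocyte-like and neuron-like, and are called ECs, microglia, macrophages and neurons here. ECs numbered 538, 292 and 2708 in WT, Tspan12 KO and Ctnnb1 cKO, microglia 283, 368 and 2129, neurons 4174, 7757 and 2364, and macrophages 1, 21 and 302. Ctnnb1 cKO cells were shallower (median 3360 UMIs per EC against 15946 in WT and 14677 in Tspan12 KO) and held more ribosomal protein transcripts (24.3% of EC UMIs against 16.4% and 17.7%). Different clusters held the ECs and microglia of the libraries: cluster 15 (led by Slc38a5, Vwa1 and Cldn5) held 95.4% of WT ECs, 73.3% of Tspan12 KO ECs and 1.14% of Ctnnb1 cKO ECs. Microglia cluster 6 (led by Ccl4, Ly86 and Cx3cr1) held 86.8% of Ctnnb1 cKO microglia. Neurons were unlike in the same way: rod cluster 7 (led by Rtkn2) held 1793 of the 1870 Ctnnb1 cKO rods but 15 of the 2594 WT rods. The name of cluster 7 rested on 3 raised rod markers, the fewest allowed, with a mean log2 difference of 0.63 over the rod list. Clusters mostly of Ctnnb1 cKO cells that shared its leading genes Rtkn2, Gm5914, Atp5k and Ndufb1 stayed unnamed at a clustering resolution of 0.5 and with doublets kept. The Ctnnb1 cKO values of rods and neurons thus depend on that name. Rod cluster 5 (led by Xkr4) was also weakly named, with 4 raised rod markers and a mean log2 difference of 0.33. It held 1103 WT, 1018 Tspan12 KO and 12 Ctnnb1 cKO rods, so the WT and Tspan12 KO values depend on its name. Cones gave 37019255 of the 80838982 neuron UMIs in Tspan12 KO against 5881190 of 36937671 in WT. The part of depth and cluster make-up in the differences below was not tested, and with 1 library per genotype the genotype and the library cannot be told apart. In ECs, Tspan12 was at 95.5, 85.4 and 40.2 UMIs per 1000000 and Ctnnb1 at 523, 612 and 444 in WT, Tspan12 KO and Ctnnb1 cKO. The 3′ tags that were counted can lie outside the deleted parts, so these levels do not check the knockouts. Libraries shared 37, 21 and 36 barcodes pair by pair.

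Levels are given as CPM, the UMIs of a gene per 1000000 UMIs of its class in that library, and a genotype is compared with WT as a log2 ratio of CPM with its exact 95% counting interval. These intervals cover counting error only, and no p-value between genotypes can be given. A gene counts as measured in a comparison with at least 50 UMIs over both libraries, and as past 2-fold when its log2 ratio is at least 1 in size. The 10 genes are not compared with each other in level.

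In ECs, the iron importer Tfrc was lower in both knockout libraries and the exporter Slc40a1 in the Ctnnb1 cKO library, while both ferritin chains were below WT by less than 2-fold. In microglia, Ctnnb1 cKO had less Tfrc, Slc40a1 and Slc7a11 than WT, and the balance of the ferritin chains was turned toward the heavy chain. That balance was turned the same way in neurons. In all neurons together, Hmox1 in Ctnnb1 cKO was past 2-fold, where microglial RNA was also higher. Counted over the genes, 1 of 8 measured in ECs was past 2-fold in Tspan12 KO (all measured genes: 6.23%) and 2 of 9 in Ctnnb1 cKO (20.8%), every one lower. In microglia, 0 of 9 were past 2-fold in Tspan12 KO (3.53%) and 3 of 9 in Ctnnb1 cKO (16.9%), all lower. In neurons the counts were 0 of 10 (6.35%) and 1 of 10, which was higher (20.8%). Without rod cluster 7, a setting added after seeing the data, the Ctnnb1 cKO ratios in neurons moved from 0.36 to 0.023 for Gpx4, from 0.72 to 0.39 for Fth1, from 0.07 to -0.12 for Ftl1, from -0.54 to -0.28 for Tfrc and from -0.94 to -0.46 for Slc7a11, and Hmox1 stayed past 2-fold at 1.84. The median log2 ratio of the measured genes was -0.21 in Tspan12 KO ECs (0.02 over all genes), -0.40 in Ctnnb1 cKO ECs (-0.12), 0.19 in Tspan12 KO microglia (0.09), -0.58 in Ctnnb1 cKO microglia (0.06), -0.11 in Tspan12 KO neurons (-0.08) and 0.18 in Ctnnb1 cKO neurons (-0.14).

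**Figure D1:**
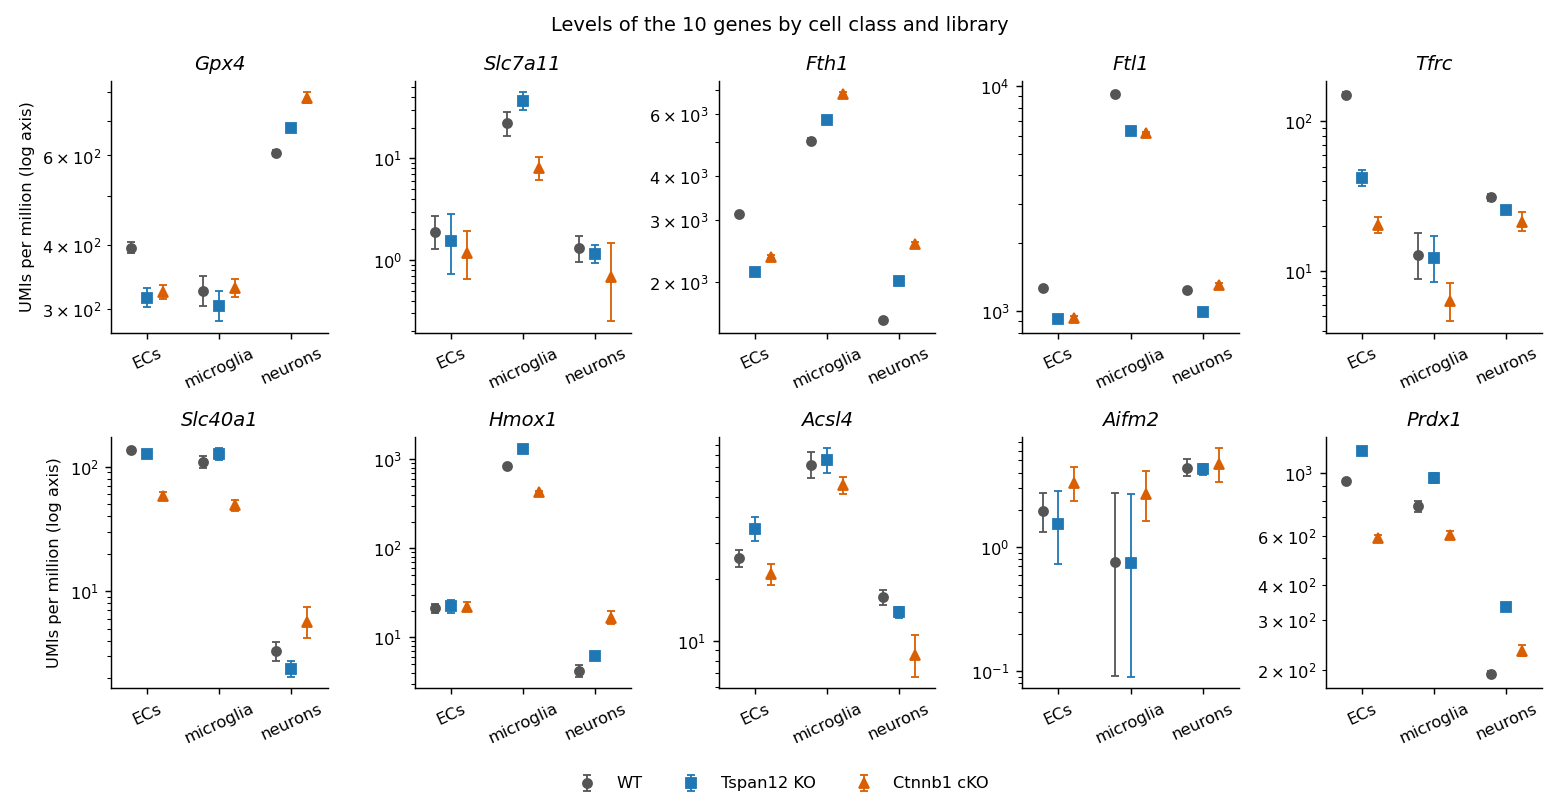
Level of each gene in CPM (log axis, own scale in each panel) in ECs, microglia and neurons of the WT (circles), Tspan12 KO (squares) and Ctnnb1 cKO (triangles) libraries, with exact 95% Poisson intervals as bars. Tfrc in ECs lies at 150 for WT and at 42.2 and 20.3 for the knockouts, and Hmox1 lies far above the other classes in microglia of every library.

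Cell classes could be compared with replication, since each library held ECs, microglia and neurons. In edgeR with the library as a block, 6 of the 10 genes differed between microglia and ECs (all genes: 48.7%), 5 of them higher in microglia and 1 lower. Between neurons and ECs, 8 differed (69.0%), 1 higher in neurons and 7 lower. Without the library block 5 were called between neurons and ECs, Gpx4, Slc7a11 and Fth1 being lost. The scaling matters for the second comparison: the TMM factors shift every neuron value against ECs by -0.50 on the log2 scale relative to plain CPM, and microglia by 0.08. The 3 libraries differ in genotype, so their spread includes it.

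**Figure D2:**
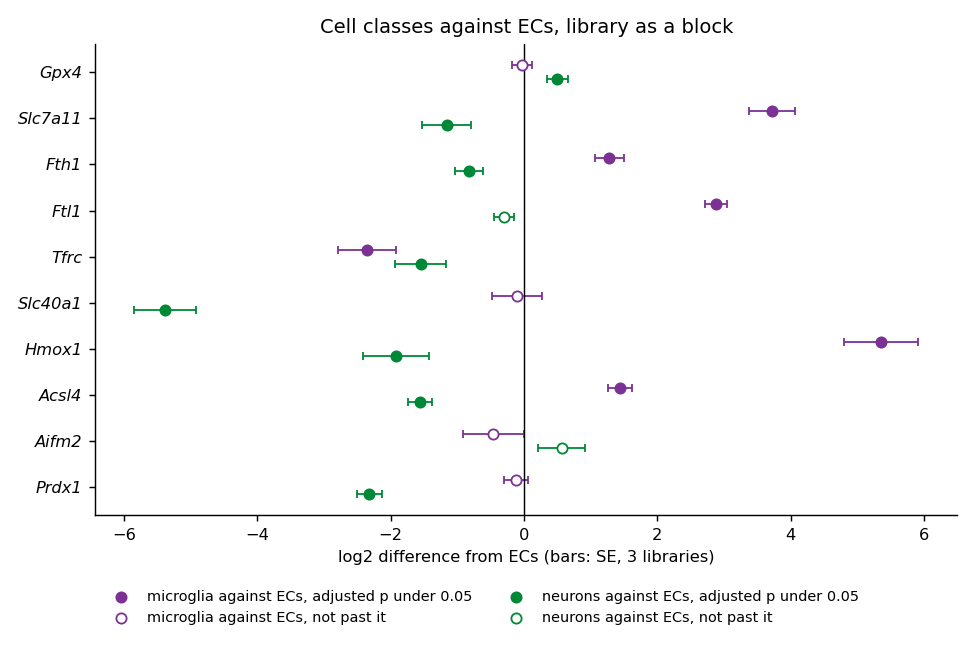
Difference between microglia (purple) or neurons (green) and ECs in edgeR on the log2 scale, with bars of 1 SE over 3 libraries and filled points where the adjusted p is under 0.05. Hmox1 is 5.36 higher in microglia, and Slc40a1 lies at -5.38 in neurons.

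Iron uptake began with Tfrc (ENSMUSG00000022797). WT ECs stood at 150 CPM (2456 UMIs), those of Tspan12 KO at 42.2 (275 UMIs) and those of Ctnnb1 cKO at 20.3 (261 UMIs). Both knockout libraries were below WT, and Ctnnb1 cKO below Tspan12 KO. The log2 ratio to WT was -1.83 (interval -2.02 to -1.65) for Tspan12 KO and -2.89 (-3.08 to -2.70) for Ctnnb1 cKO. Since the libraries differed in depth, every EC was also thinned to 2000 UMIs: 28.4% of WT ECs (exact 95% interval 24.6 to 32.5%), 9.20% of Tspan12 KO ECs (5.98 to 13.4%) and 3.66% of Ctnnb1 cKO ECs (2.86 to 4.61%) then held a Tfrc UMI, leaving out 17, 31 and 823 shallower cells. The order by genotype was the same as for CPM. Without thinning the shares were 71.4, 41.8 and 7.75%. Rods, set beside them as a class of other origin, had 6.88, 5.66 and 3.24% at the same depth (median UMIs before thinning 3686, 1918 and 1614), so the interval of Ctnnb1 cKO ECs included the rod share of that library.

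By cluster, the Tfrc difference held in one and not in another. Within cluster 15, which held most ECs of both WT and Tspan12 KO, Tfrc was at 154 CPM in WT and 35.7 in Tspan12 KO, a log2 ratio of -2.11. In cluster 4 (led by Ifitm3, Hmcn1 and Col18a1), Tspan12 KO cells had 61.4 CPM (exact interval 50.3 to 74.2) and Ctnnb1 cKO cells 24.7 (21.7 to 27.9), and the 24 WT cells there had 14.3 (5.24 to 31.1) from 6 UMIs, so that Tspan12 KO was above WT in that cluster. Cluster 16, which was nearly all Ctnnb1 cKO and was led by Igfbp3, Eln, Mgp, Edn1 and Plvap, held 3.13 CPM. Of the 3 EC clusters, WT had at least 50 cells only in cluster 15, so Ctnnb1 cKO and WT ECs could not be compared inside 1 cluster. Erythroid precursors express much Tfrc, and erythrocyte markers in ECs stood at 222, 3162 and 310 CPM in the 3 libraries. Without the ECs that held more than 5 haemoglobin UMIs (6.69, 4.79 and 0.517% of them), the Tfrc ratios were -1.91 and -3.01, a setting added after seeing the data.

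**Figure D3:**
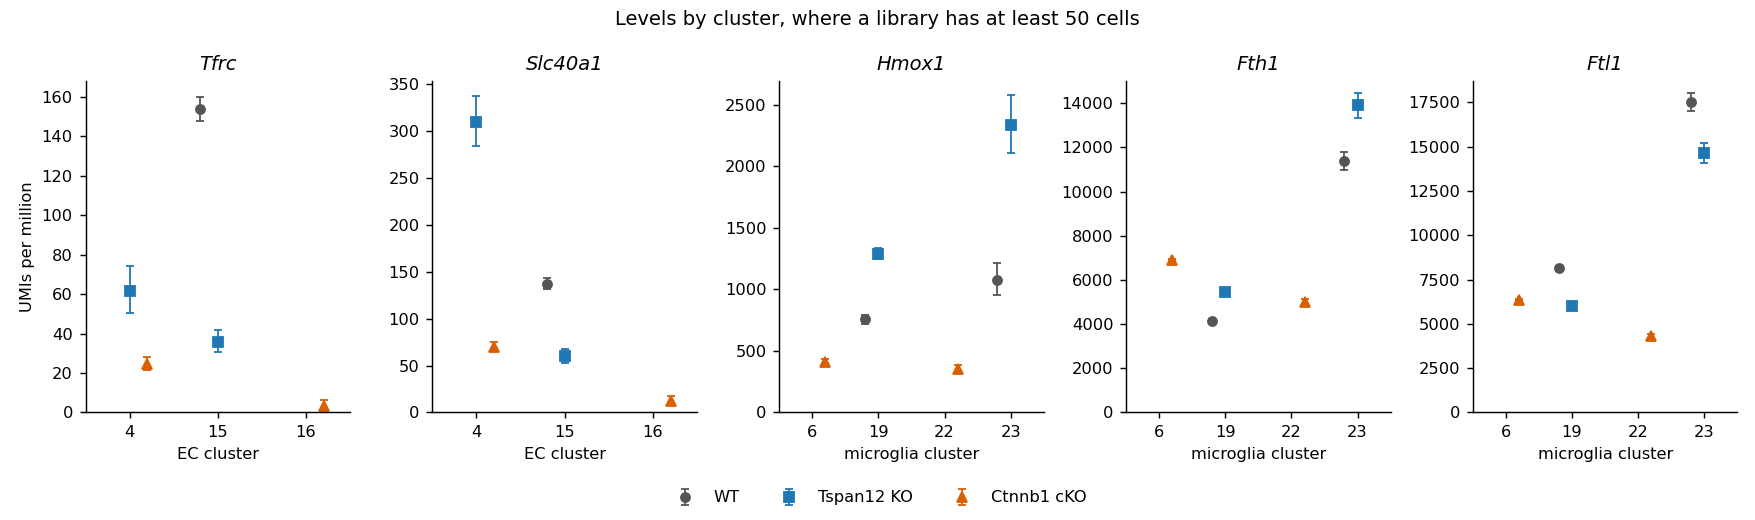
CPM of 5 genes by EC cluster (Tfrc, Slc40a1) or microglia cluster (Hmox1, Fth1, Ftl1), drawn where a library has at least 50 cells in the cluster, with exact 95% Poisson intervals. In EC cluster 15, Tfrc is at 154 in WT (circle) and 35.7 in Tspan12 KO (square). Microglia cluster 23 has the highest Hmox1 and ferritin levels.

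Outside ECs, Tfrc varied less. Neurons had 31.2, 25.5 and 21.4 CPM (log2 ratios -0.29 and -0.54), and microglia 12.9, 12.3 and 6.31 CPM from only 34, 33 and 47 UMIs, with log2 ratios of -0.08 (-0.81 to 0.66) for Tspan12 KO and -1.04 (-1.70 to -0.35) for Ctnnb1 cKO. Thinning to 2000 UMIs moved the microglial ratios to -1.14 and -2.15, on very few UMIs. Microglia were below ECs in every library, with log2 ratios of CPM of -3.54, -1.78 and -1.69 in WT, Tspan12 KO and Ctnnb1 cKO, and edgeR gave a difference of -2.36 (SE 0.435, adjusted p = 0.0019). Neurons differed from ECs by -1.55 in edgeR (adjusted p = 0.00619), but library by library the log2 ratio of CPM was -2.27 for WT, -0.72 for Tspan12 KO and 0.08 for Ctnnb1 cKO, so that in the last library ECs were no longer above neurons.

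In storage, the 2 ferritin chains went different ways in microglia. The heavy chain Fth1 (ENSMUSG00000024661), which carries the ferroxidase activity, stood at 3111, 2133 and 2362 CPM in ECs of WT, Tspan12 KO and Ctnnb1 cKO, with log2 ratios of -0.54 (-0.57 to -0.52) and -0.40 (-0.42 to -0.38). In microglia it ran the other way, at 5026, 5751 and 6823 CPM, with log2 ratios of 0.19 and 0.44. This direction did not hold when CPM was averaged over cells instead of summing UMIs, which gave -0.24 and -0.12. In neurons Fth1 was at 1563, 2014 and 2570 CPM (0.37 and 0.72), and within single neuron classes the largest ratio was in amacrine cells of Ctnnb1 cKO, 2078 against 957 CPM (1.12, interval 1.04 to 1.19). None of these reached 2-fold except the amacrine value.

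The light chain Ftl1 (ENSMUSG00000050708), which helps iron cores to form, was lower than WT in both knockout libraries in ECs and in microglia. ECs had 1259, 920 and 930 CPM (log2 ratios -0.45 and -0.44) and microglia 9244, 6313 and 6183 CPM (-0.55 and -0.58). Neurons had 1241, 991 and 1305 CPM (-0.33 and 0.07). Reads of Ftl1 can be shared with its near-identical copy Ftl1-ps1, which was counted at 56.7, 81.0 and 17.3 CPM in microglia. Reads that fit both copies may have been dropped, and their part in the Ftl1 values was not tested.

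Since both chains are read from the same cells, their ratio within a library is free of scaling. In ECs it was 2.47, 2.32 and 2.54 Fth1 UMIs per Ftl1 UMI in WT, Tspan12 KO and Ctnnb1 cKO. In microglia it was 0.544, 0.911 and 1.10, the WT library lowest. Neurons also had the lowest ratio in WT, 1.26 against 2.03 and 1.97. Over the 8 settings tried, the microglial ratio kept to 0.519 to 0.611 for WT, 0.889 to 0.924 for Tspan12 KO and 1.09 to 1.12 for Ctnnb1 cKO, and these ranges did not overlap. Adding Ftl1-ps1 to the light chain gave 0.540, 0.900 and 1.10.

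**Figure D4:**
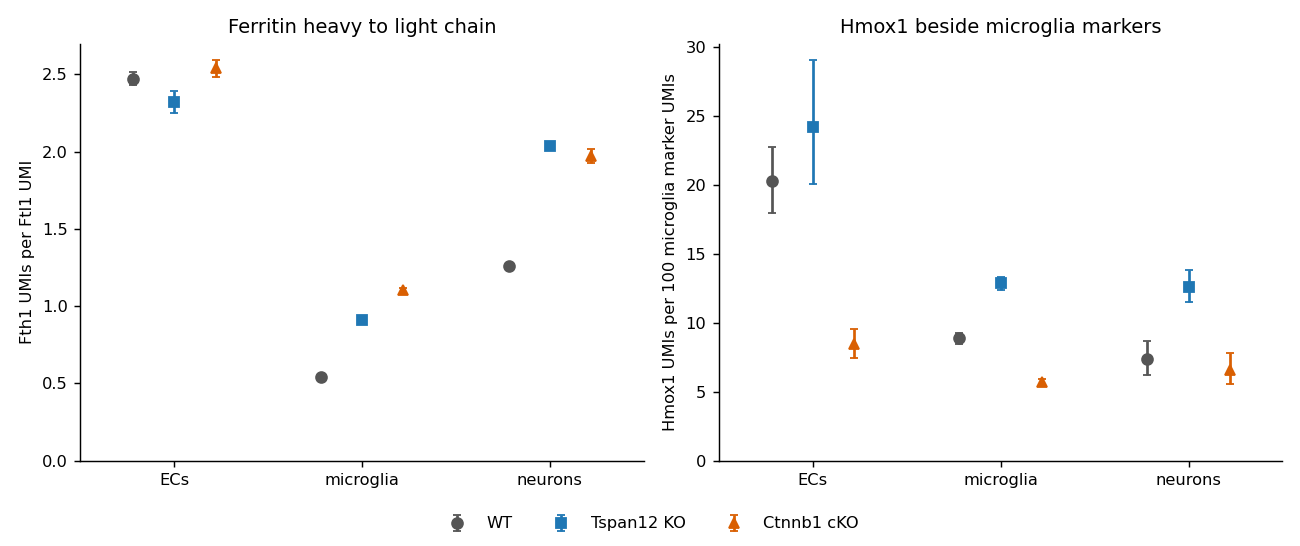
Left, Fth1 UMIs per Ftl1 UMI; right, Hmox1 UMIs per 100 UMIs of 10 microglia marker genes, both by cell class for the WT (circles), Tspan12 KO (squares) and Ctnnb1 cKO (triangles) libraries with 95% counting intervals. The ferritin ratio in microglia is 0.544 in WT and 0.911 and 1.10 in the knockouts, and the Hmox1 ratio in neurons is 7.39, 12.6 and 6.60 beside 8.87, 12.9 and 5.69 in microglia.

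Against ECs, microglia had more of both chains. Ftl1 was 2.88 higher on the log2 scale in edgeR (SE 0.162, adjusted p = 2.9e-06), with per-library ratios of 2.88, 2.78 and 2.73, and Fth1 was 1.28 higher (SE 0.214, adjusted p = 0.00112). Between neurons and ECs, Fth1 differed by -0.83 (adjusted p = 0.00735) after TMM scaling but by -0.33, not called, when each sum was scaled by its total, and its per-library ratios of CPM were -0.99, -0.08 and 0.12. Ftl1 was not called between neurons and ECs and changed sign with the scaling, from -0.30 to 0.20.

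Iron export rested on Slc40a1 (ENSMUSG00000025993), ferroportin, the only known exporter of iron from mammalian cells. ECs had 135, 126 and 58.4 CPM in WT, Tspan12 KO and Ctnnb1 cKO. The Ctnnb1 cKO library stood apart, at -1.21 (-1.34 to -1.09) on the log2 scale, while the Tspan12 KO interval of -0.22 to 0.01 around -0.10 included 0. That Tspan12 KO value was made of unlike parts: within cluster 15 Slc40a1 was at 137 CPM in WT and 59.8 in Tspan12 KO (log2 ratio -1.20), and Tspan12 KO cells of cluster 4 held 310. Ctnnb1 cKO ECs had 70.1 in cluster 4 and 12.1 in cluster 16. The 24 WT cells of cluster 4 had 80.9 (56.0 to 113) from 34 UMIs, an interval that included the Ctnnb1 cKO value there. At 2000 UMIs per cell, 23.6, 24.9 and 9.39% of ECs held a Slc40a1 UMI against 0.826, 0.683 and 1.37% of rods, so that ECs lay above rods in every library.

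In microglia Slc40a1 was at 109, 126 and 49.1 CPM, again lowest in Ctnnb1 cKO, with log2 ratios of 0.21 and -1.15 (-1.38 to -0.92). No difference between microglia and ECs was called in edgeR (-0.10, adjusted p = 0.847), and in each library the log2 ratio of their levels lay between -0.31 and 0.002. Neurons were far below both, at 3.28, 2.36 and 5.66 CPM, and the difference from ECs was -5.38 (SE 0.467, adjusted p = 1.16e-05). Per 100 UMIs of EC markers, Slc40a1 counted 1.32, 1.32 and 0.661 in ECs. Neurons had 1.63 (1.35 to 1.95), 1.33 (1.15 to 1.54) and 1.08 (0.804 to 1.43), above ECs in WT and Ctnnb1 cKO, and rods alone 1.94 (1.48 to 2.5), 2.87 (2.18 to 3.71) and 1.10 (0.763 to 1.55), above ECs in every library. The part of EC RNA in the neuronal level was not tested.

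Haem breakdown, by Hmox1 (ENSMUSG00000005413), was read mostly from microglia. Microglia had 838, 1296 and 428 CPM in WT, Tspan12 KO and Ctnnb1 cKO, ECs 21.1, 22.2 and 22.1, and neurons 4.22, 6.21 and 16.7. The levels of the 3 classes did not overlap over the libraries, and microglia exceeded ECs by 5.36 on the log2 scale (SE 0.556, adjusted p = 6.49e-05). Neurons differed from ECs by -1.92 (adjusted p = 0.00781), a call lost without the WT library (-1.50). Against WT the microglial log2 ratio was 0.63 (0.55 to 0.71) for Tspan12 KO and -0.97 (-1.05 to -0.89) for Ctnnb1 cKO, the latter just short of 2-fold. It passed 2-fold, at -1.37, when doublets were kept, and the Tspan12 KO value dropped to 0.26 there.

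The spread of that RNA over cells differed between libraries. UMIs of Hmox1 were found in 170 of 283 WT microglia, 177 of 368 in Tspan12 KO and 619 of 2129 in Ctnnb1 cKO, and the 5 cells with most UMIs held 46.9, 50.6 and 12.97% of them. At 2000 UMIs per cell the shares of microglia with a UMI were 34.2, 27.2 and 22.1%, against 0.963, 1.66 and 2.87% of rods. Median depths before thinning were 9587, 7452 and 3072 UMIs in microglia. The share of cells did not order Tspan12 KO above WT as the CPM did.

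Hmox1 was also the leading gene of a small microglia cluster (cluster 23), although the 10 genes were kept out of the clustering. It held 100 WT cells (35.3% of WT microglia), 77 in Tspan12 KO (20.9%) and 48 in Ctnnb1 cKO (2.25%), with median depths of only 2136, 1754 and 1384 UMIs. Hmox1 there was at 1078 CPM in WT and 2335 in Tspan12 KO, Fth1 at 11376 and 13910, and Ftl1 at 17503 and 14642. In the main microglia cluster of those libraries (cluster 19) Hmox1 was at 757 and 1289 CPM, Fth1 at 4120 and 5437 and Ftl1 at 8167 and 6022. Ctnnb1 cKO microglia of cluster 6 held 413 CPM of Hmox1, 6903 of Fth1 and 6331 of Ftl1. The cluster led by Hmox1 was thus richer in both ferritin chains as well, but not in these alone. Prdx1 was at 1728 and 2161 CPM in cluster 23 against 654 and 893 in cluster 19, and Gpx4 at 539 and 504 against 305 and 291. Acsl4, Slc40a1 and Slc7a11 had lower CPM in cluster 23 in both libraries, but on few UMIs. In WT and Tspan12 KO these were 5 and 4 for Acsl4, 16 and 20 for Slc40a1, and 0 and 1 for Slc7a11. In Tspan12 KO the intervals of clusters 23 and 19 overlapped for Slc40a1 (73.3 to 185 and 118 to 149 CPM) and Slc7a11 (0.152 to 33.4 and 25.5 to 40.9). Median depths in cluster 19 were 11962 and 8416 UMIs, and the part of depth in these differences was not tested. WT and Tspan12 KO differed in Hmox1 in the same direction inside both clusters.

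The higher neuronal Hmox1 of Ctnnb1 cKO (1.98 on the log2 scale, interval 1.64 to 2.31) stood beside higher microglia markers. The 10 microglia markers summed to 57.1, 49.2 and 252 CPM in neurons of WT, Tspan12 KO and Ctnnb1 cKO, 0 of the 10 being at 0, and macrophage markers to 1.71, 2.03 and 59.2 CPM. Per 100 microglia-marker UMIs, neurons held 7.39 (6.24 to 8.70), 12.6 (11.5 to 13.9) and 6.60 (5.55 to 7.80) Hmox1 UMIs, and microglia of the same libraries 8.87, 12.9 and 5.69. For Tspan12 KO and Ctnnb1 cKO the neuronal interval included the microglial value, and for WT it lay just below it. Rods alone did not follow their markers so closely: in Tspan12 KO rods Hmox1 was past 2-fold against WT (3.72 to 11.3 CPM, log2 ratio 1.60, interval 1.19 to 2.03) while microglia markers stood at 63.3 CPM in WT and 72.5 in Tspan12 KO. Their ratio was 5.87 (4.49 to 7.56) in WT, below the microglial value, and 15.6 (13.4 to 18.0) in Tspan12 KO, above it. The part of microglial RNA in the neuronal and rod values was not tested. ECs were different: they held 20.2, 24.2 and 8.45 (7.46 to 9.54) Hmox1 UMIs per 100 marker UMIs, above the microglial ratio in each library.

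Cystine import, by Slc7a11 (ENSMUSG00000027737), was highest in microglia and low elsewhere. Microglia had 22.1, 36.4 and 8.05 CPM, from 58, 98 and 60 UMIs. Relative to WT this was 0.72 (0.24 to 1.22) on the log2 scale for Tspan12 KO and -1.45 (-2.0 to -0.91) for Ctnnb1 cKO. Few cells decided these levels: only 12 of 283, 18 of 368 and 38 of 2129 microglia held a UMI, and the top 5 cells held 82.8, 76.5 and 33.3% of all UMIs. Counting intervals assume independent UMIs and are too narrow for such a gene, and with cells thinned to 2000 UMIs the Tspan12 KO ratio was -0.16.

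ECs had 1.89, 1.53 and 1.17 CPM of Slc7a11 and neurons 1.30, 1.15 and 0.680, with too few UMIs in ECs for either ratio. Microglia exceeded ECs by 3.72 on the log2 scale (SE 0.344, adjusted p = 3.42e-05), and by 3.54, 4.57 and 2.79 in the single libraries. Neurons differed from ECs by -1.16 (adjusted p = 0.0194) with TMM scaling, a call lost with total scaling (-0.68), without the WT library (-1.27) and without the Tspan12 KO library (-1.17).

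Among the peroxide-reducing enzymes, Gpx4 (ENSMUSG00000075706), the lipid peroxidase at the centre of ferroptosis defence, stayed near its WT level, with log2 ratios between -0.33 and 0.36 in the 3 classes. ECs had 395, 315 and 323 CPM (log2 ratios -0.33 and -0.29), microglia 325, 304 and 329 (-0.10 and 0.02), and neurons 606, 679 and 779 (0.16 and 0.36). Neurons exceeded ECs in every library, by 0.62, 1.11 and 1.27 on the log2 scale of CPM and by 0.50 in edgeR (adjusted p = 0.0168), a call lost without the Tspan12 KO (0.42) or the Ctnnb1 cKO library (0.39) and with doublets kept (0.18). Without rod cluster 7 the neuronal ratio of Ctnnb1 cKO to WT was 0.023. Between microglia and ECs the difference was -0.03 (adjusted p = 0.909). Gpx4 was the 1 gene of the 10 called higher in neurons than in ECs.

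Prdx1 (ENSMUSG00000028691), the thiol peroxidase, moved in opposite directions in ECs of the knockout libraries. ECs had 941, 1204 and 589 CPM, 0.36 (0.32 to 0.39) on the log2 scale for Tspan12 KO and -0.68 (-0.72 to -0.64) for Ctnnb1 cKO. Microglia followed the same order at 762, 965 and 604 CPM (0.34 and -0.34), although averaging over cells turned the Tspan12 KO value to -0.16. Neurons had 193, 334 and 234 CPM (0.79 and 0.28). ECs and microglia overlapped in level (-0.12 in edgeR, adjusted p = 0.62), and neurons lay below ECs at -2.32 (SE 0.191, adjusted p = 8.87e-06).

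Aifm2 (ENSMUSG00000020085), the quinone reductase, was rare in all classes. ECs had 1.95, 1.53 and 3.26 CPM, and Ctnnb1 cKO stood to WT at 0.74 (0.04 to 1.45) on the log2 scale. Neurons had 4.39, 4.23 and 4.64 CPM, and microglia 2, 2 and 20 UMIs in all. Neither class was called different from ECs for Aifm2 in edgeR (microglia adjusted p = 0.445, neurons adjusted p = 0.181), although with total scaling the neuronal difference of 1.06 was called. Differences between genotypes were not detectable in microglia at this depth.

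Acsl4 (ENSMUSG00000031278), which prepares the lipids that are oxidised, was highest in microglia. Microglia had 71.9, 75.4 and 57.0 CPM, ECs 25.2, 35.1 and 21.1, and neurons 16.3, 13.8 and 8.49, without overlap between classes. Microglia exceeded ECs by 1.44 (SE 0.183, adjusted p = 0.000219), and neurons lay below ECs at -1.56 (adjusted p = 7.27e-05). Against WT the log2 ratios were 0.48 (0.24 to 0.72) and -0.26 in ECs, 0.07 and -0.33 in microglia, and -0.24 and -0.94 in neurons, none of them past 2-fold. In amacrine cells alone the Ctnnb1 cKO ratio was -1.30 (-2.64 to -0.21), from 7 UMIs.

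**Figure D5:**
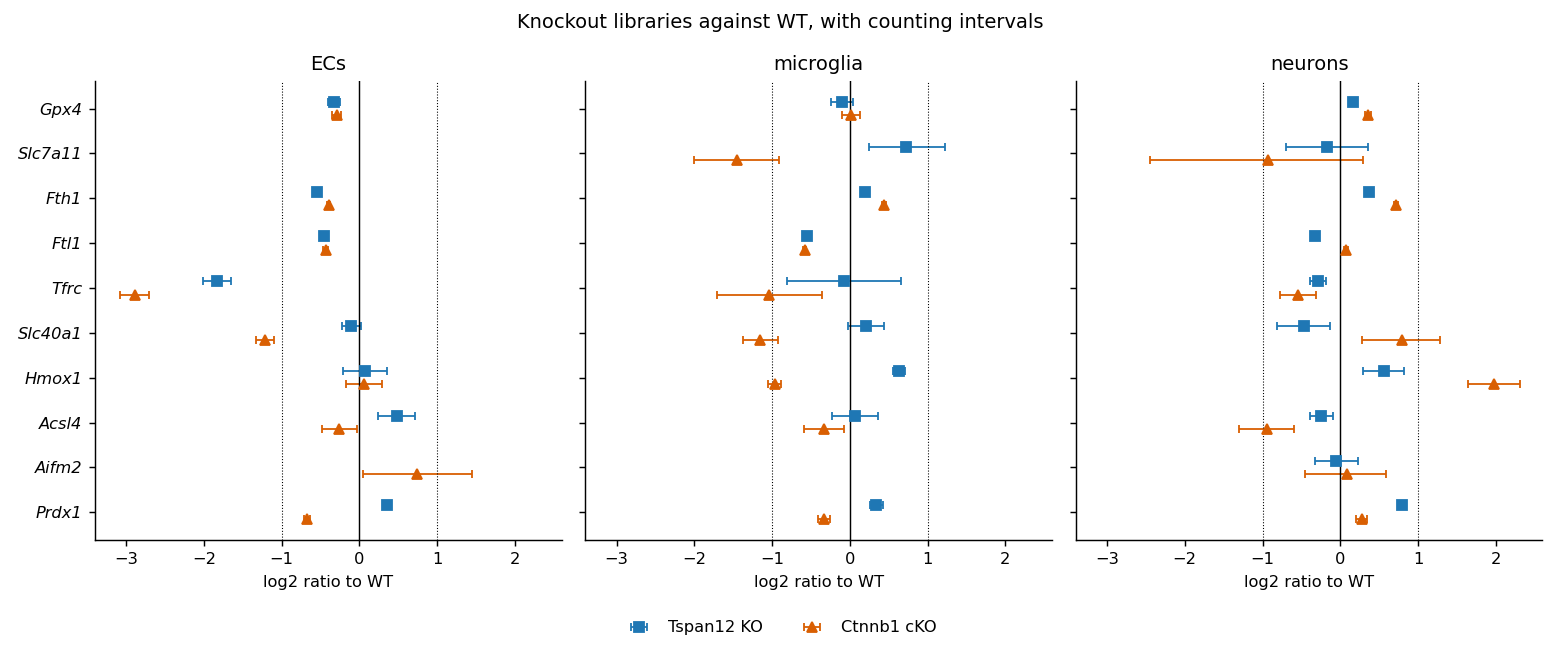
Log2 ratio of each gene to WT in Tspan12 KO (squares) and Ctnnb1 cKO (triangles) by cell class, with exact 95% counting intervals and dotted lines at 2-fold; genes under 50 UMIs are left out. In ECs Tfrc lies at -1.83 and -2.89, and Slc40a1 at -1.21 in Ctnnb1 cKO.

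The wider pathway was read from 11 lists of 85 genes, the 10 genes included. In Tspan12 KO ECs, 0 of 72 measured genes were past 2-fold upward and 3 downward (4.17%, against 6.23% of all genes). All 3 belonged to the 6 measured genes of iron uptake: Tfrc, transferrin itself (Trf, 136 to 57.6 CPM, log2 ratio -1.23) and the endosomal ferrireductase Steap3 (21.4 to 10.6 CPM, -1.02). In Ctnnb1 cKO ECs, 1 of 72 was past 2-fold upward and 8 downward, 12.5% against 20.8% of all genes. The lower ones were Tfrc, Steap3 (-1.79), Slc40a1, the peroxiredoxins Prdx3 (59.1 to 20.8 CPM, -1.51) and Prdx4 (294 to 116 CPM, -1.35), thioredoxin Txn1 (672 to 320 CPM, -1.07), the fatty acid desaturase Fads2 (-1.03), and Bach1, a repressor of haem-responsive genes (117 to 49.7 CPM, -1.23). The higher gene was Alox5ap (3.11 to 10.7 CPM, 1.78), which is abundant in microglia (126 CPM on average), and microglia markers in ECs stood at 104, 92.0 and 261 CPM in WT, Tspan12 KO and Ctnnb1 cKO. The part of that RNA in the Alox5ap value was not tested. All 13 genes of the peroxide defence list were measured in Ctnnb1 cKO ECs, with a median log2 ratio of -0.84 beside -0.12 over all genes, and 3 were past 2-fold. In that list only Gpx1 (279 to 512 CPM) and Sod1 (198 to 295 CPM) were above WT, each by less than 2-fold.

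In microglia the same lists gave 0 of 63 genes past 2-fold in Tspan12 KO, where all genes gave 3.53%, and 6 upward and 6 downward of 69 in Ctnnb1 cKO, 17.4% beside 16.9% of all genes. Beside Tfrc, Slc40a1 and Slc7a11, the lower genes were Ncoa4, the receptor that delivers ferritin to autophagy (59.7 to 14.9 CPM, log2 ratio -2.0), Prdx3 (-1.29) and thioredoxin reductase Txnrd1 (133 to 66.7 CPM, -1.0). Ncoa4 was also below WT in Ctnnb1 cKO ECs (23.1 to 14.2 CPM) and neurons (25.3 to 13.3 CPM), by less than 2-fold. The higher ones were the zinc and iron importer Slc39a14 (3.04 to 16.8 CPM, 2.46), the ferroxidase ceruloplasmin Cp (7.23 to 16.4 CPM, 1.18), Alox5 (1.14 to 6.71 CPM, 2.56), Hspb1 (1.13), superoxide dismutase Sod1 (57.0 to 116 CPM, 1.02) and Nfe2l2, the transcription factor NRF2 (181 to 367 CPM, 1.02). Slc7a11 is a known NRF2 target, and the 2 mRNAs stood on opposite sides of WT here, that of Slc7a11 from few cells. NRF2 activity was not measured. Nfe2l2 was also above WT in Ctnnb1 cKO ECs (91.7 to 142 CPM) and neurons (26.1 to 37.6 CPM). Slc39a14, Cp, Alox5 and Hspb1 rested on 8, 19, 3 and 9 UMIs in WT microglia. Ctnnb1 cKO macrophages held 923 CPM of Cp, 43.9 of Alox5 and 5.22 of Slc39a14, and ECs 51.5 of Hspb1 on average. In WT and Ctnnb1 cKO microglia, macrophage markers stood at 94.7 and 197 CPM and EC markers at 204 and 487. The part of macrophage and EC RNA in these values was not tested.

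In neurons, 2 of 80 genes were past 2-fold upward and 2 downward in Tspan12 KO, and 5 upward and 3 downward of 74 in Ctnnb1 cKO. These were 5% and 10.8% of the genes, against 6.35% and 20.8% of all genes. Cp was past 2-fold in both, at 46.7, 101 and 129 CPM in WT, Tspan12 KO and Ctnnb1 cKO, but in Tspan12 KO it was not past 2-fold in rods, cones, bipolar or amacrine cells taken alone. In Ctnnb1 cKO it was, in rods (15.9 to 99.5 CPM, 2.65) and amacrine cells (21.2 to 85.8 CPM, 2.02). Of those rods, 1793 of 1870 were of cluster 7. Cp was at 923 CPM in Ctnnb1 cKO macrophages, whose markers stood at 1.71 CPM in WT neurons and 59.2 in Ctnnb1 cKO neurons. It was also a leading gene of unnamed cluster 20, nearest to Muller glia, where 348 of 357 cells were Ctnnb1 cKO. The part of cluster 7 and of RNA from other cells in the Cp values was not tested. Sat1 was higher in Tspan12 KO (127 to 294 CPM, log2 ratio 1.20). Of the other upward genes in Ctnnb1 cKO neurons, Hmox1, Trf (2.15), Gpx1 (1.27) and Alox5ap (2.93) were at higher levels in microglia or ECs, whose markers were also higher in those neurons (EC markers 201, 177 and 522 CPM). Their part in these values was not tested. Fbxl5, which senses iron and degrades an iron regulatory protein, was lower (117 to 49.3 CPM, -1.25). Between classes, edgeR called 26 of 77 list genes higher and 25 lower in microglia than in ECs, 66.2% beside 48.7% of all genes, and 12 higher and 47 lower in neurons, 76.6% beside 69.0%. The neuronal split is that of TMM scaling, under which 51.5% of calls over all genes were higher, against 68.4% with total scaling.

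Because proliferating cells need iron, cycling cells (at least 3 UMIs over 12 genes of the G2/M phase after thinning to 2000 UMIs) were compared with the other cells of their class and library. Of 8 genes measured in ECs, Prdx1 was higher and Slc40a1 lower in cycling cells with an interval clear of 0 in all 3 libraries (all genes: 18.9%). The Prdx1 log2 ratios were 0.46, 0.50 and 0.61 in WT, Tspan12 KO and Ctnnb1 cKO, and those of Slc40a1 -0.63, -1.45 and -0.27. The interval of that last Slc40a1 ratio, -0.544 to -0.0023, nearly reached 0. Tfrc was lower in cycling ECs in WT (-0.49) and Tspan12 KO (-0.45), with 0.34 (-0.10 to 0.75) in Ctnnb1 cKO. Of the ECs with at least 2000 UMIs, 29.8, 20.3 and 17.9% were cycling, and in WT Tfrc was at 122 CPM in cycling cells and 170 in the others. The part of the cycle in the Tfrc differences between libraries was not tested.

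In microglia, 4 of 8 measured genes were lower in cycling cells in all 3 libraries (all genes: 6.17%), and none was higher. They were Fth1 (-0.38, -0.41 and -0.55), Ftl1 (-0.53, -0.51 and -0.57), Slc40a1 (-1.72, -1.48 and -1.15) and Hmox1 (-0.78, -1.14 and -0.63). The Slc40a1 ratios rested on 7, 17 and 34 UMIs in cycling cells. Genes with many UMIs reach such an interval more easily, here and in ECs, so the share over all genes is not matched for abundance. Cycling microglia were 8.02, 10.2 and 15.2% of the microglia with at least 2000 UMIs (19, 32 and 271 cells, with 46, 55 and 344 shallower cells left out). The mRNAs of these genes of storage, export and haem breakdown were thus lower in them, while the cycling rule used none of these genes.

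Macrophages could be set beside microglia only in Ctnnb1 cKO, where 302 were found. Of 9 measured genes, 1 was past 2-fold upward and 1 downward (all genes: 16.7%). Slc40a1 was higher in macrophages, 120 against 49.1 CPM (log2 ratio 1.29, interval 0.98 to 1.60), and Slc7a11 lower, with 1 UMI in all (1.04 against 8.05 CPM, -2.95, interval -8.27 to -0.41). Hmox1 was at 267 against 428 CPM (-0.68), Fth1 at 5790 against 6823 (-0.24), Ftl1 at 4931 against 6183 (-0.33) and Gpx4 at 472 against 329 (0.52). Over the wider lists, 7 of 69 genes were past 2-fold upward and 9 downward, 23.2% against 16.7% of all genes. Macrophages had more Cp (923 against 16.4 CPM, 5.82), biliverdin reductase Blvrb (345 against 88.4 CPM, 1.96) and Trf (1625 against 611 CPM, 1.41), and less of the desaturase Scd2 (14.6 against 162 CPM, -3.47) and of Gclc (18.8 against 73.0 CPM, -1.96), the catalytic subunit of the first step of glutathione synthesis.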

How the data were processed

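Single cells from 3 libraries (1 per genotype) were analysed from the deposited filtered matrices, whose values are UMI counts per gene and barcode. Per the file headers the authors ran Cell Ranger 8.0.1, whereas the methods name another version and an mm10 reference and the submitters' processing notes name GRCm39, so no coordinates are given for the counted genes. The notes name a v3 3′ kit and the methods v3.1. IRE coordinates come from a match to GENCODE vM21 on GRCm38, and a sequence found there was not compared with the reference used for counting.

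The cell filter required 250 genes and 500 UMIs and allowed 15% of UMIs to be mitochondrial, and 0.8% per 1000 cells with the highest Scrublet scores were removed as doublets (760, 1656 and 665 cells), leaving 8989, 12732 and 8451. Counts were clustered (scanpy 1.11.5, 2000 variable genes without the pathway genes, 30 components, 20 neighbours, Leiden resolution 1) with no batch correction, and a cluster was named where at least 3 fixed markers were raised. UMIs were summed by class and library. Neurons were the rod, cone, bipolar and amacrine clusters together, since no cluster was named as ganglion or horizontal cells. Genotypes were compared by log2 ratios with exact conditional binomial intervals, and classes in edgeR 4.0.16 (quasi-likelihood test, TMM, 9 sums, Benjamini-Hochberg over all genes) with the library as a block, since classes of 1 library come from the same mice. All p-values are adjusted and come from edgeR. DESeq2 1.42.0 was an alternative. The edgeR fit was tested on simulated data. The 10 genes were named in every comparison, and genes of the 11 lists only where past 2-fold or, between classes, called, up to 3 per list. Genes, lists and tests were chosen with earlier results of these data known. The whole-number counts of shallow Ctnnb1 cKO cells give that library less precision per cell.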

Additional observations from a re-analysis of the deposited data

Results flagged for a closer look

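Fth1 moved in opposite directions in 2 cell classes of the same libraries. For Tspan12 KO the log2 ratio of Fth1 was -0.544 in ECs but 0.1945 in microglia, and for Ctnnb1 cKO -0.3973 in ECs but 0.441 in microglia, with all 4 counting intervals clear of 0. With 1 library per genotype the difference between the classes was not tested. Averaged over cells, the microglial values were -0.24 and -0.12, so that ECs and microglia then lay on the same side of WT.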

How the results depend on the processing

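The limits are those of 1 library per genotype, unequal depth and class names rebuilt here. Counts of the 10 genes past 2-fold or called stayed within 1.5 times the main count in 83 recounts and moved in 13. For Tspan12 KO ECs (1), the cluster with most WT cells alone gave 2. For Ctnnb1 cKO ECs (2), a limit of 1.5-fold gave 4. For Tspan12 KO microglia (0), means over cells gave 1 and 1.5-fold gave 2. For Ctnnb1 cKO microglia (3), thinning to 2000 UMIs gave 1, where fewer UMIs leave fewer genes measured. For Tspan12 KO neurons (0), keeping doublets, means over cells and 1.5-fold gave 1 each. For Ctnnb1 cKO neurons (1), keeping doublets gave 2, means over cells 3, 1.5-fold 5 and the mean over neuron classes 2. Except where a construction is named, the cause was not tested. Without the replicate block, that is without pairing classes by library, the 8 genes called between neurons and ECs became 5, and the 6 between microglia and ECs were again 6 in number. Leaving out 1 library gave 6 calls for microglia each time and 6 to 7 for neurons, where Gpx4 (0.39 to 0.69), Slc7a11 (-1.27 to -1.03) and Hmox1 (-2.56 to -1.50) lost their call in at least 1 of the 3 fits. Over all alternatives Tfrc in ECs ranged from -2.22 to -1.78 in Tspan12 KO and from -3.63 to -2.75 in Ctnnb1 cKO. Scaling by TMM shifted Ctnnb1 cKO ECs by 0.135, and neurons by 0.133 in Tspan12 KO and 0.144 in Ctnnb1 cKO. It moved the higher share of all genes past 2-fold from 40.0 to 51.4% in Ctnnb1 cKO ECs, from 55.6 to 40.4% in Tspan12 KO microglia, and in neurons from 27.9 to 45.5% in Tspan12 KO and from 35.4 to 47.4% in Ctnnb1 cKO. Between neurons and ECs, total scaling, added after seeing the data, moved the higher share of calls from 51.5 to 68.4%. The single-cluster, haemoglobin, rod-cluster and Hmox1-cluster settings were also added after seeing the data.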

Other observations

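The 21 macrophages of Tspan12 KO, too few for a comparison, had 460 CPM of Slc40a1 and 168 of Hmox1. Over 32 profiles of a class in a library, which share library and depth, the expressed genes most like Slc40a1 were Trim47 (Pearson r = 0.969), Prcp (0.969) and Fli1 (0.959), and those most like Hmox1 were Agmo (0.959), Creg1 (0.957) and Hexa (0.948). Tfrc had no such close companion, the nearest being Cdk11b (0.874), Psma6 (0.826) and Yes1 (0.807). Agmo was also the gene most like Ftl1 (0.958), whereas Fth1 was nearest to Rab43 (0.922) and Prdx1 to Clic1 (0.944). The lowest nearest correlations were those of Slc7a11 (Ints6l, 0.816) and Aifm2 (Slc20a2, 0.779).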
